A study of Homo sapiens with 6 samples.

Results

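The 10 genes described here belong to the cornified envelope and to stratified epithelium, and they were chosen by symbol from a table of 24580 rows: IVL, TGM1, SPRR1A, SPRR1B, SPRR3, A2ML1, CSTA, SFN, LYPD3 and PERP. All 10 symbols were found, each in 1 row. Total RNA was made into sequencing libraries from LoVo-HM cells, labelled as a subline of LoVo with high metastatic capacity, and from wildtype LoVo cells, an established human colorectal carcinoma line. Each of the 2 groups had 3 libraries, no treatment was recorded for either, and nothing in the labels tells how the subline was obtained, whether it is 1 clone, or whether the libraries came from separate cultures. The p-values therefore measure the spread between these libraries, which may be technical. Levels are FPKM, fragment counts scaled by the authors for transcript length and library size.

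The cornified envelope is the insoluble shell that replaces the plasma membrane of keratinocytes as they reach the surface of skin, mouth or oesophagus. Precursor proteins such as involucrin and the small proline-rich proteins are laid down under the membrane and joined by transglutaminases, while protease inhibitors and junction proteins hold the layers together. Simple epithelia such as the lining of the colon do not cornify, although some of these genes, among them SFN and PERP, are also used there.

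Of the 10 genes, 5 fell in LoVo-HM (A2ML1, CSTA, PERP, LYPD3 and SFN), none rose, 1 did not pass the test (TGM1), and 4 were too low to test (IVL, SPRR1A, SPRR1B and SPRR3). A gene was tested where its mean over the 6 libraries reached 0.5 FPKM, and called where limma's adjusted p, with Benjamini-Hochberg adjustment over all 14487 genes tested, was under 0.05. By that rule 44.9% of all tested genes were called, and 23.1% of all tested genes were called as lower in LoVo-HM, so the 5 calls among 6 tested members are read against a wide change between the lines. All 5 were lower by at least 2-fold, that is by at least 1 on the log2(FPKM + 1) scale, as were 4.18% of all tested genes, while no member was higher by at least 2-fold, as were 2.37% of all tested genes. The other 4, which encode envelope precursors, were listed at 0 in every LoVo-HM library and stayed below 1 FPKM in every LoVo library. Among the 6 tested members the median log2 difference was -2.15, against 0.0027 over all tested genes. The members were chosen with earlier results of these data known, so these counts and this median describe them and test nothing. A2ML1 and CSTA reached the limit for testing only through their LoVo level. In bulk RNA, fewer cells with a transcript and less transcript per cell cannot be told apart.

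**Figure D1:**
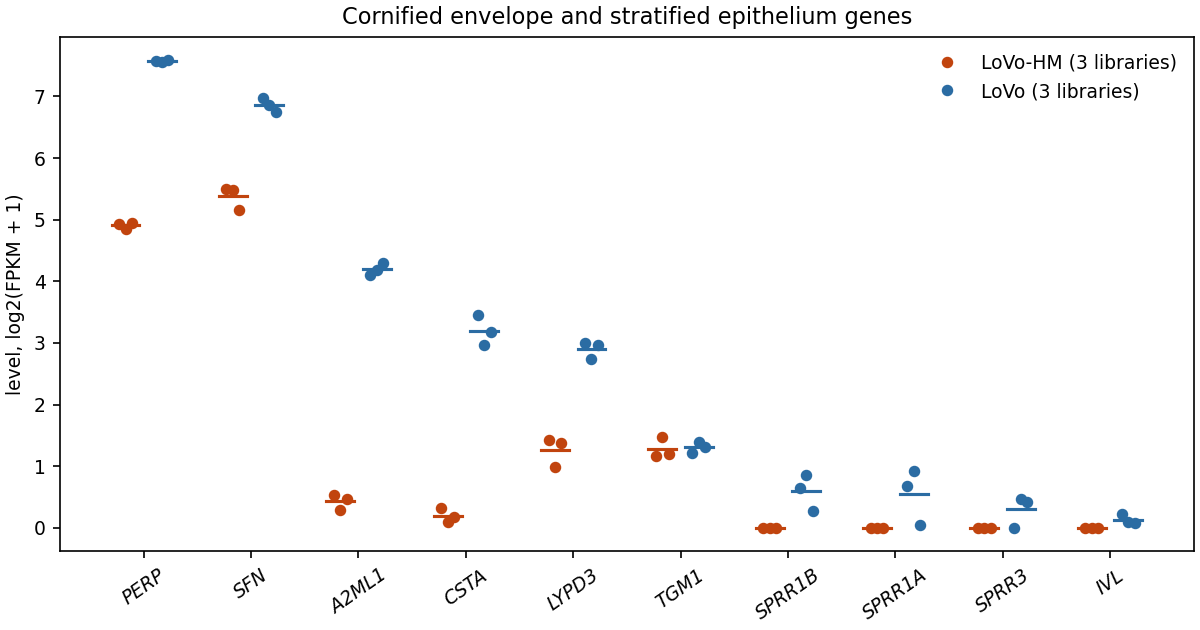
Level of each of the 10 genes, as log2(FPKM + 1), in the 3 LoVo-HM libraries (red, left) and the 3 LoVo libraries (blue, right). Points are libraries and bars are group means. The groups are apart for PERP, SFN, A2ML1, CSTA and LYPD3 and overlap for TGM1, and IVL, SPRR1A, SPRR1B and SPRR3 are at 0 in LoVo-HM.

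The sequences upstream of these genes are shown so that the members can be compared by the motif letters they hold. RefSeq promoter windows (GRCh38.p14, 250 bases before to 50 after the start) matched 8 of the 10 members, with 2 starts for A2ML1, and none for TGM1 or CSTA. Each window was searched on both strands for TGANTCA, the letters bound by AP-1 (dimers of JUN and FOS proteins that are known to act on the involucrin and SPRR promoters), and for TATAAA, the TATA box. AP-1 letters were found in 6 of the 8 members (IVL, SPRR1A, SPRR1B, SPRR3, SFN and PERP) and in 7.71% of 35116 windows. TATA letters were found in 4 members (IVL, SPRR1A, SPRR3 and A2ML1) and in 11.5% of the windows. The 190 bases before the start are given for the 6 members with AP-1 letters and for the first start of A2ML1, which has none. Capitals mark AP-1 and TATA letters, and all are written 5′ to 3′ on the strand of the gene.
IVL (chr1:152908356-152908545, plus strand): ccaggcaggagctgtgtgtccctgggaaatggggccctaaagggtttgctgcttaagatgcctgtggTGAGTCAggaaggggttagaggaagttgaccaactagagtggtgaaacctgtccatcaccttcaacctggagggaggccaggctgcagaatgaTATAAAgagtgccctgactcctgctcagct
SPRR1A (chr1:152983891-152984080, plus strand): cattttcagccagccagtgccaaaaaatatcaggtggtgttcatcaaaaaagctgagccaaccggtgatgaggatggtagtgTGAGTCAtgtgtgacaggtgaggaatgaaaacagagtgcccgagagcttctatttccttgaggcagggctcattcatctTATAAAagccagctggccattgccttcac
SPRR1B (chr1:153031013-153031202, plus strand): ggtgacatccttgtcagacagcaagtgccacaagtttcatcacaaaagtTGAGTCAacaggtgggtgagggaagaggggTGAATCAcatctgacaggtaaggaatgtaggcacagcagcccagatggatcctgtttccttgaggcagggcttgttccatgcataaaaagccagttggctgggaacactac
SPRR3 (chr1:153001559-153001748, plus strand): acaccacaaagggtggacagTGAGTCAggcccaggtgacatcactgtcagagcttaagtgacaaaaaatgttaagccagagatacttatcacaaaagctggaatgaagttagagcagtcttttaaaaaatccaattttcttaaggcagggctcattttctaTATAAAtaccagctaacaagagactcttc
SFN (chr1:26862959-26863148, plus strand): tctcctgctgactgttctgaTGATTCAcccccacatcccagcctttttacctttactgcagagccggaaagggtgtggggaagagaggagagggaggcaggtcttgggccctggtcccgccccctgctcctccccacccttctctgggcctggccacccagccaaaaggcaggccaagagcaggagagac
PERP (chr6:138107420-138107609, minus strand): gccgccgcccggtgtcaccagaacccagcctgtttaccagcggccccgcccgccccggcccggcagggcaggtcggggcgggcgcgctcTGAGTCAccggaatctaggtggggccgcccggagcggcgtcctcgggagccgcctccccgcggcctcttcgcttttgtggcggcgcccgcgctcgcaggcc
A2ML1 (chr12:8822431-8822620, plus strand): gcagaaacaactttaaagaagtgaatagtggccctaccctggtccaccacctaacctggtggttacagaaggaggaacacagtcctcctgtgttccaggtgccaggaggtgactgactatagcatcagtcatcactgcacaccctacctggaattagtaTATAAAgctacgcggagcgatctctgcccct

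In IVL the AP-1 letters began at -123 and the TATA letters at -30, counted in bases from the start site. SPRR1A and SPRR3 had the same pair of motifs, with AP-1 letters at -108 and -170 and TATA letters at -29 in both. SPRR1B held AP-1 letters in 2 places, at -141 and -111, and no TATA letters. SFN and PERP, which are outside that gene cluster, held AP-1 letters at -170 and -101 in windows of 63.7% and 77.0% GC, against 53.3% in IVL and a median of 58.7% over all windows. The AP-2 letters GCCNNNGGC were found in LYPD3 alone, at -59, and in 23.2% of all windows. The short KLF letters CACCC, which overlapped the AP-1 letters in SFN and SPRR1B, were in 6 of the 8 members and in 59.9% of all windows. A match is a run of letters and was not tested as a site of binding.

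**Figure D2:**
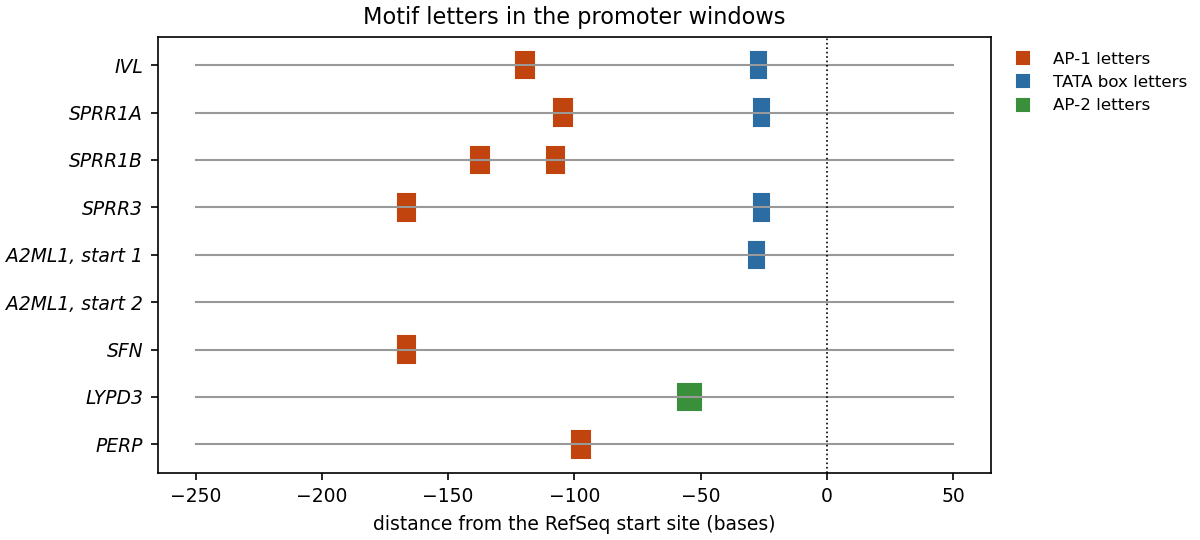
Position of AP-1 (red), TATA box (blue) and AP-2 (green) letters in the RefSeq promoter windows of 8 genes, with 2 starts for A2ML1. The horizontal axis is the distance in bases from the start site, which is the dotted line. AP-1 letters lie between -170 and -101 in 6 genes, and TATA letters lie between -31 and -29 in 4.

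The envelope precursors were at the floor of the measurement in both lines. IVL encodes involucrin, an early scaffold of the envelope (ENSG00000163207, GRCh38 chromosome 1, 152908545 to 152911886, 2 exons), and was listed at 0 in all 3 LoVo-HM libraries and at 0.163, 0.0647 and 0.0529 FPKM in LoVo. SPRR1A and SPRR1B are paralogs that encode small proline-rich proteins bridging other envelope proteins. SPRR1A (chromosome 1, 152985231 to 152985500) was listed at 0 in each LoVo-HM library and at 0.606, 0.895 and 0.0352 FPKM in LoVo. SPRR1B (chromosome 1, 153031202 to 153032900) was listed at 0 in each LoVo-HM library and at 0.564, 0.810 and 0.214 FPKM in LoVo. Because paralogs can trade reads, their sum is also given, at 0 in every LoVo-HM library and 1.17, 1.70 and 0.249 FPKM in LoVo replicates 1 to 3. LoVo replicate 3 was thus the lowest of its group for both genes. SPRR3, which is best known from oesophageal epithelium (chromosome 1, 153001747 to 153003856), was listed at 0 in all LoVo-HM libraries and at 0, 0.385 and 0.343 FPKM in LoVo, so its groups touch at 0. In the annotation the SPRR1A model is a single exon of 270 bases that begins downstream of the RefSeq start, and a short model makes an FPKM value sensitive to few reads.

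These 4 genes were left out of the main test by its filter, and depth is unknown, so a value of 0 does not show that a transcript was absent. Without the filter SPRR1B was called as lower (limma adjusted p = 0.0219), while IVL, SPRR1A and SPRR3 did not pass. The LoVo-HM values of SPRR1B were all 0, so that group added no spread of its own to the test. Among all untested rows that were above 0 in at least 1 library, 18.9% were listed at 0 in every LoVo-HM library but not in every LoVo library, and 17.9% the other way round. Of the 11 SPRR genes in the table, 0 were above 0 in any LoVo-HM library and 5 were above 0 in at least 1 LoVo library. The other two were SPRR2D, at 0.339, 0.0696 and 0.255 FPKM in LoVo, and SPRR2E, at 0.338, 0.317 and 0.0823 FPKM, both listed at 0 in LoVo-HM and both close copies of other SPRR2 genes.

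These 4 members lie in the epidermal differentiation complex, a cluster of genes for envelope precursors and S100 proteins. From S100A10 to S100A1 (GRCh38 chromosome 1, 151982915 to 153632039) the table held 64 genes, of which 38 were listed at 0 in all 6 libraries. Another 12 were above 0 in LoVo libraries alone and 0 in LoVo-HM libraries alone, beside 1243 and 1186 of all 24580 rows. The 12 include the 4 members, SPRR2D and SPRR2E, and each of the rest was above 0 in only 1 LoVo library. A list of 40 other envelope precursors and S100-fused proteins, including loricrin, filaggrin and the late cornified envelope genes, had no member high enough to test, and its highest value in any library was 0.339 FPKM. The 11 genes of the cluster that were tested were all S100 genes, which encode small calcium-binding proteins. Of these, 2 rose, 3 fell and 6 did not pass, with a median log2 difference of 0.09. The S100 genes given here were named after their values were seen. S100A14, S100A16 and S100A11 fell to 1.61 ± 0.350, 25.4 ± 1.31 and 61.6 ± 4.77 FPKM in LoVo-HM, against 47.7 ± 2.49, 132 ± 0.731 and 149 ± 3.15 FPKM in LoVo (SD, n = 3 each). S100A6 rose to 583 ± 56.7 FPKM in LoVo-HM, against 295 ± 21.8 FPKM in LoVo. S100A5 was also called as higher (0.72 ± 0.233 on the log2 scale, limma adjusted p = 0.0347), a call that was lost without any 1 library other than LoVo replicate 2 (limma adjusted p = 0.054 to 0.102).

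TGM1 encodes the membrane-bound transglutaminase 1, which links envelope precursors in keratinocytes (ENSG00000092295, chromosome 14, 24249114 to 24264432, minus strand). It stood at 1.25, 1.77 and 1.29 FPKM in LoVo-HM and at 1.32, 1.63 and 1.49 FPKM in LoVo, and the groups overlapped. The log2 difference was -0.03 ± 0.115 (SE), with a 95% interval from -0.29 to 0.23 (limma adjusted p = 0.842). The interval does not reach the size of any of the falls reported here for members. TGM1 supplied most of the transglutaminase transcript in both lines, between 87.6 and 97.0% of the summed FPKM of TGM1 to TGM7 in LoVo-HM and between 94.8 and 97.5% in LoVo. TGM2, the widely expressed tissue transglutaminase, averaged 0.0762 FPKM in LoVo-HM, with 0.0607 FPKM in LoVo, and was too low to test.

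In the list of transglutaminases and cornification scaffold genes, 5 of 16 were tested, of which 3 fell, 0 rose and 2 did not pass, with a median of -0.42. PPL, which encodes the desmosome-linked plakin periplakin, fell to 2.32 ± 0.283 FPKM in LoVo-HM, against 7.40 ± 0.375 FPKM in LoVo (log2 difference -1.34 ± 0.088, limma adjusted p = 4.92e-06). EVPL, its partner envoplakin, fell to 4.79 ± 0.741 FPKM in LoVo-HM, against 6.69 ± 0.162 FPKM in LoVo (-0.42 ± 0.098, limma adjusted p = 0.00837). DMKN, which encodes the secreted epithelial protein dermokine, fell to 39.8 ± 1.77 FPKM in LoVo-HM, against 67.1 ± 6.08 FPKM in LoVo.

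The protease inhibitors A2ML1 and CSTA showed the widest differences among the 6 tested members. A2ML1 encodes a secreted relative of alpha-2-macroglobulin that traps proteases in the upper epidermis (ENSG00000166535, chromosome 12, 8822472 to 8887001, plus strand). It stood at 0.442, 0.228 and 0.391 FPKM in LoVo-HM and at 16.2, 17.2 and 18.7 FPKM in LoVo. Every LoVo-HM library was far below every LoVo library, and the LoVo mean was 49.2-fold that of LoVo-HM. The log2 difference was -3.76 ± 0.094 (limma adjusted p = 1.08e-08), the 29th lowest among the 14487 tested genes. Its relatives A2M and PZP were near 0 in both lines, so that A2ML1 made up 79.6 to 96.1% of the summed level of the 3 genes in LoVo-HM and 99.8 to 99.9% in LoVo.

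CSTA encodes cystatin A, a cytoplasmic inhibitor of cysteine proteases that is also built into the envelope (ENSG00000121552, chromosome 3, 122325244 to 122341972, plus strand). It stood at 0.25, 0.0644 and 0.132 FPKM in LoVo-HM and at 9.97, 6.79 and 8.04 FPKM in LoVo. The groups did not overlap, as in 55% of all tested genes, and the log2 difference was -3.0 ± 0.135 (limma adjusted p = 4.23e-07). Because the LoVo-HM values of both genes are below the pseudocount of 1, the differences of A2ML1 and CSTA grew to -5.30 and -5.12 with a pseudocount of 0.1. The share of CSTA in the summed level of cystatins A, B and C was 0.0905 to 0.349% in LoVo-HM and 6.93 to 8.99% in LoVo. CSTB, the ubiquitous cystatin B, averaged 27.9 ± 1.74 FPKM in LoVo-HM, with 31.2 ± 1.09 FPKM in LoVo, and did not pass the test (-0.16 ± 0.059, limma adjusted p = 0.0579). It passed without LoVo-HM replicate 1 (limma adjusted p = 0.0469). CST3, the secreted cystatin C, fell to 38.7 ± 6.37 FPKM in LoVo-HM, against 62.7 ± 5.45 FPKM in LoVo (-0.69 ± 0.115, limma adjusted p = 0.0014).

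The wider list of proteases and inhibitors of cornification had 28 genes, of which 6 were tested. Of these, 1 rose, 2 fell and 3 did not pass, with a median of -0.16, beside 44.9% of all tested genes called. Without the filter on low values 5 of the list were lower. CTSV, a cysteine protease that cystatins inhibit, fell to 14.2 ± 0.732 FPKM in LoVo-HM, against 20.5 ± 0.416 FPKM in LoVo. BLMH, an aminopeptidase that helps to break down filaggrin, rose to 18.3 ± 1.07 FPKM in LoVo-HM, against 14.2 ± 1.07 FPKM in LoVo. The lysosomal proteases CTSD and LGMN stood at 115 ± 1.00 and 28.96 ± 3.71 FPKM in LoVo-HM, with 128 ± 13.9 and 31.0 ± 0.445 FPKM in LoVo, and neither passed (limma adjusted p = 0.106 and 0.373). CTSD passed without LoVo replicate 2 (limma adjusted p = 0.0335).

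PERP and SFN were the abundant members, at the 83.0th and 88.8th percentiles of levels among tested genes in LoVo-HM and the 98.5th and 97.1st in LoVo. PERP encodes a tetraspan membrane protein of desmosomes that p53 and p63 are known to induce (ENSG00000112378, chromosome 6, 138088505 to 138107511, minus strand). It stood at 29.4, 27.9 and 29.9 FPKM in LoVo-HM and at 189, 187 and 191 FPKM in LoVo. All LoVo-HM libraries were far below all LoVo libraries, and the LoVo mean was 6.51-fold that of LoVo-HM. The log2 difference was -2.66 ± 0.043 (limma adjusted p = 1.02e-09), the 81st lowest of all.

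PERP is related to the PMP22/EMP family of tetraspan membrane proteins, and the members of that family were measured beside it. Of its 4 tested genes, 3 rose and 1 fell, with a median of 0.91. EMP3 rose to 15.2 ± 1.90 FPKM in LoVo-HM, against 5.86 ± 1.03 FPKM in LoVo, and EMP1 to 4.78 ± 0.309 FPKM in LoVo-HM, against 1.68 ± 0.0281 FPKM in LoVo. PMP22, a protein of myelin that other cells express too, rose to 10.2 ± 0.859 FPKM in LoVo-HM, against 5.88 ± 0.655 FPKM in LoVo. EMP2 fell to 8.23 ± 0.496 FPKM in LoVo-HM, against 11.2 ± 0.527 FPKM in LoVo, and TMEM47 was near 0 in both. PERP accounted for 41.4 to 44.5% of the summed level of the 6 genes in LoVo-HM and for 88.3 to 88.7% in LoVo.

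SFN encodes 14-3-3 sigma, the epithelial 14-3-3 protein, which p53 is known to induce and which restrains entry into mitosis (ENSG00000175793, chromosome 1, 26863138 to 26864457, a single exon on the plus strand). It stood at 44.3, 43.8 and 34.8 FPKM in LoVo-HM and at 124, 115 and 106 FPKM in LoVo. The groups did not overlap, although LoVo-HM replicate 3 was lower than the other two of its group. The log2 difference was -1.47 ± 0.096 (limma adjusted p = 4.63e-06), and the LoVo mean was 2.81-fold that of LoVo-HM.

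The 6 other 14-3-3 genes, which are expressed in nearly all cells, differed far less. Of these, 3 rose, 1 fell and 2 did not pass, with a median of 0.08. YWHAZ fell to 178 ± 3.50 FPKM in LoVo-HM, against 239 ± 24.8 FPKM in LoVo (-0.42 ± 0.0675, limma adjusted p = 0.00118). YWHAQ and YWHAG rose to 113 ± 3.00 and 81.6 ± 1.02 FPKM in LoVo-HM, against 99.9 ± 2.89 and 72.6 ± 1.92 FPKM in LoVo. YWHAE rose to 242 ± 8.71 FPKM in LoVo-HM, against 215 ± 5.57 FPKM in LoVo, a call lost without LoVo replicate 2 (limma adjusted p = 0.0501) and with no trend in the variance (limma adjusted p = 0.0525). YWHAB and YWHAH stood at 86.5 ± 0.558 and 89.7 ± 1.73 FPKM in LoVo-HM, with 88.5 ± 0.850 and 90.5 ± 2.15 FPKM in LoVo. SFN therefore made up 4.18 to 5.35% of the summed 14-3-3 level in LoVo-HM and 11.3 to 13.5% in LoVo.

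**Figure D3:**
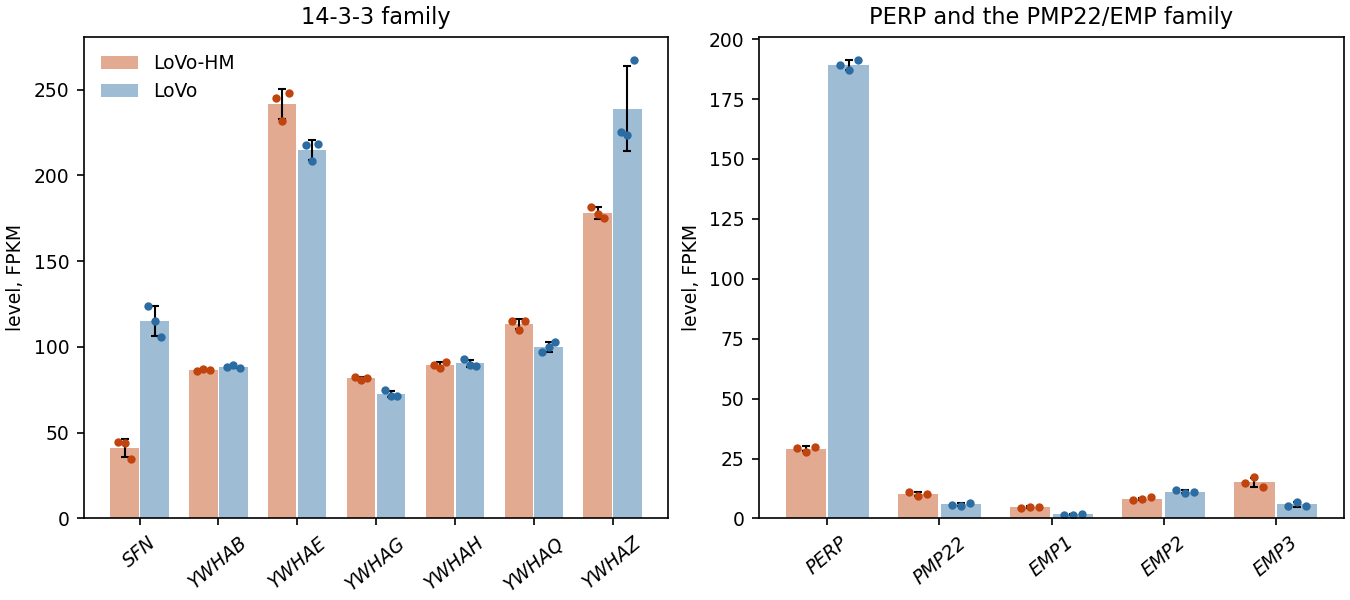
Level in FPKM of SFN and the 6 other 14-3-3 genes (left panel) and of PERP and 4 genes of the PMP22/EMP family (right panel), in LoVo-HM (red, left bar) and LoVo (blue, right bar). Bars are means of 3 libraries, error bars are SD and points are libraries. SFN is at 41.0 FPKM in LoVo-HM, with 115 FPKM in LoVo, while the other 14-3-3 genes stand closer together, and PERP is lower in LoVo-HM while EMP1, EMP3 and PMP22 are higher.

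LYPD3 encodes C4.4A, a lipid-anchored surface protein of the Ly6/uPAR family that marks suprabasal keratinocytes (ENSG00000124466, chromosome 19, 43460787 to 43465660, minus strand). It stood at 1.68, 0.991 and 1.61 FPKM in LoVo-HM and at 6.99, 5.66 and 6.82 FPKM in LoVo, with no overlap. The log2 difference was -1.63 ± 0.132 (limma adjusted p = 1.86e-05), the 249th lowest of all, and the LoVo mean was 4.55-fold that of LoVo-HM. Its family is larger, and 9 of 24 other Ly6/uPAR genes were tested, of which 2 rose, 2 fell and 5 did not pass, with a median of -0.08. LYPD5 fell to 1.47 ± 0.0341 FPKM in LoVo-HM, against 3.80 ± 0.494 FPKM in LoVo, and PLAUR, the urokinase receptor, to 4.37 ± 0.566 FPKM in LoVo-HM, against 7.87 ± 0.584 FPKM in LoVo. LY6E, an abundant member, rose to 226 ± 15.8 FPKM in LoVo-HM, against 176 ± 6.09 FPKM in LoVo. LYPD6 was called as higher (0.27 ± 0.092, limma adjusted p = 0.0435), and this call was lost without any 1 of the 6 libraries (limma adjusted p = 0.0557 to 0.135), which leaves 1 gene called as higher.

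The list of enzymes of the lipid barrier that surrounds the envelope had 21 genes, of which 8 were tested. Of these, 4 fell, 2 rose and 2 did not pass, with a median of -0.25, and no call reached 2-fold. ABHD5 and SLC27A4, which act in fatty acid supply, fell by 0.51 ± 0.101 and by 0.50 ± 0.074 on the log2 scale. ALOXE3 and ALOX12B, the epidermal lipoxygenases, fell to 0.822 ± 0.111 and 2.48 ± 0.409 FPKM in LoVo-HM, against 1.58 ± 0.203 and 3.67 ± 0.567 FPKM in LoVo. The ALOX12B call was lost without LoVo-HM replicate 2 or 3 and without LoVo replicate 1 or 3 (limma adjusted p = 0.0656 to 0.0763), with no filter (limma adjusted p = 0.0564) and with quantile normalization (limma adjusted p = 0.065). SMPD1 and UGCG, enzymes of sphingolipid turnover, rose by 0.38 ± 0.109 and 0.22 ± 0.066. Their count of 2 dropped to 0 without LoVo-HM replicate 1 or LoVo replicate 1, and to 1 without any other library. ELOVL1 did not pass, at 46.4 ± 1.99 FPKM in LoVo-HM, with 49.0 ± 0.615 FPKM in LoVo.

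The listed transcription factors of stratified epithelia were mostly lower. Of 26 listed genes 22 were tested, of which 15 fell, 6 rose and 1 did not pass, with a median of -0.50. Of all tested genes, 23.1% were called as lower and 21.8% as higher. TP63, the p63 factor that basal layers depend on, was at 0.228, 0.344 and 0.316 FPKM in LoVo-HM and at 36.01, 34.5 and 37.9 FPKM in LoVo. TP63 reached the limit for testing only through its LoVo level. Its log2 difference ranged from -6.53 to -4.80 over the 16 alternatives. GRHL3 and GRHL2, the grainyhead-like factors known to act on TGM1 and on junction genes, fell to 0.923 ± 0.216 and 0.869 ± 0.181 FPKM in LoVo-HM, against 11.4 ± 0.969 and 9.41 ± 0.774 FPKM in LoVo. KLF5 fell to 37.0 ± 0.778 FPKM in LoVo-HM, against 184 ± 3.21 FPKM in LoVo, and KLF4, a factor of late differentiation, to 8.55 ± 0.345 FPKM in LoVo-HM, against 14.4 ± 0.631 FPKM in LoVo.

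PRDM1, a repressor expressed in the granular layer, moved the other way and rose to 10.02 ± 0.864 FPKM in LoVo-HM, against 3.12 ± 0.390 FPKM in LoVo. TFAP2A did not pass, at 22.1 ± 1.44 FPKM in LoVo-HM, with 22.8 ± 1.74 FPKM in LoVo, and ZNF750, a p63 target that drives terminal differentiation, was too low to test, at 0.101 FPKM in LoVo-HM, with 0.0946 FPKM in LoVo. The AP-1 genes of the list, named after their values were seen, did not share a direction. JUNB fell to 16.2 ± 1.96 FPKM in LoVo-HM, against 42.4 ± 1.57 FPKM in LoVo. FOSL2 rose to 22.9 ± 1.11 FPKM in LoVo-HM, against 9.97 ± 0.0585 FPKM in LoVo, and FOSL1 to 27.6 ± 1.67 FPKM in LoVo-HM, against 20.8 ± 1.25 FPKM in LoVo. Whether any of these factors act on the 10 genes was not tested.

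Other genes of stratified epithelium did not all follow the 10 genes. Of 12 suprabasal keratins 4 were tested, of which 2 rose, 1 fell and 1 did not pass, with a median of 1.17. KRT4, the keratin of oesophageal upper layers, fell to 1.80 ± 0.415 FPKM in LoVo-HM, against 11.0 ± 0.778 FPKM in LoVo. Its usual partner KRT13 rose to 29.7 ± 1.54 FPKM in LoVo-HM, against 0.126 ± 0.0248 FPKM in LoVo, and KRT80 to 17.6 ± 1.65 FPKM in LoVo-HM, against 3.05 ± 0.493 FPKM in LoVo. KRT13 reached the limit for testing only through its LoVo-HM level. The log2 difference of KRT13 ranged from 4.74 to 7.04 over the 16 alternatives. Keratins have close paralogs, so each value is uncertain, and the count of 1 that fell became 2 without any 1 of the LoVo-HM libraries. Of 26 surface and secreted genes 9 were tested, of which 5 fell, 1 rose and 3 did not pass, with a median of -0.23. TRIM29, a basal cell protein, fell to 14.6 ± 0.491 FPKM in LoVo-HM, against 92.4 ± 2.45 FPKM in LoVo, and GJB2, connexin 26, to 12.7 ± 1.38 FPKM in LoVo-HM, against 22.9 ± 0.269 FPKM in LoVo. ANXA8, which shares reads with a near-identical copy, was the largest fall of that list (-5.00 ± 0.060). FABP5 was lower (-0.23 ± 0.063, limma adjusted p = 0.0174), a call lost without LoVo-HM replicate 2 and without LoVo replicate 1 or 2. TMPRSS11E, a serine protease, fell by 0.43 ± 0.105, and the surface protein CD24 rose by 0.34 ± 0.076.

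**Figure D4:**
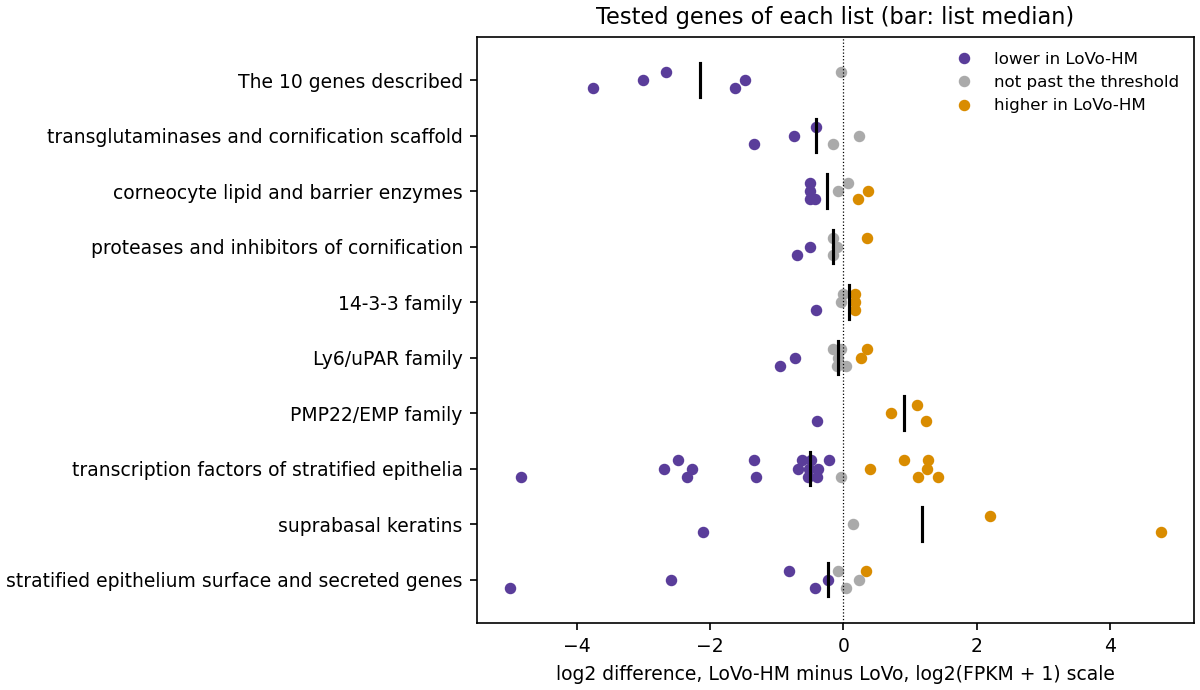
Log2 difference, LoVo-HM minus LoVo on the log2(FPKM + 1) scale, of each tested gene in the 10 genes described and in 9 lists of related genes. Points are genes, coloured by limma's call, and black bars are list medians. The median is -2.15 for the 6 tested members, -0.50 for transcription factors and 0.91 for the PMP22/EMP family.

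The 5 members that fell lie on 5 chromosomes. For each, the nearest protein-coding genes on either side that reached the limit for testing were read. Of all tested genes, 23.1% were called as lower. The genes beside SFN did not fall: ZDHHC18, 5.54 kb before it, was higher (0.30 ± 0.068) and GPN2, 11.7 kb after it, did not pass (0.11 ± 0.083). Beside LYPD3, CD177 fell (-1.02 ± 0.151) and PHLDB3 did not pass (-0.15 ± 0.130). Both tested neighbours fell for A2ML1 (RIMKLB, -1.32 ± 0.075, and PHC1, -0.33 ± 0.094), for CSTA (ILDR1, -0.81 ± 0.110, and CCDC58, -0.33 ± 0.096) and for PERP (TNFAIP3, 205 kb away, -2.60 ± 0.074, and ARFGEF3, -0.89 ± 0.074). The PHC1 call was lost without LoVo-HM replicate 1 and without LoVo replicate 1 or 2, and the CCDC58 call without LoVo-HM replicate 2 or 3 and without LoVo replicate 3. CD177, 97.6 kb from LYPD3, and ILDR1, 303 kb from CSTA, averaged 0.0523 and 0.113 FPKM in LoVo-HM. They reached the limit for testing only through their LoVo level. With a pseudocount of 0.1 their differences grew to -3.09 and -2.32, that of CD177 then being larger than that of LYPD3 (-2.14).

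Marker genes of several cell types were read beside the name of the line. With several colonic markers at or near 0 in every library, they do not by themselves settle the identity of the cells. Of 10 colonic epithelial markers, VIL1, CDX1 and GPA33 were listed at 0 in all 6 libraries and LGALS4 reached at most 0.245 FPKM, whereas EPCAM, CDH1, CDX2, KRT8, KRT18 and KRT19 were present in both lines. Of these 6 genes, CDH1 and EPCAM fell (-2.46 and -1.29 on the log2 scale), and KRT19, CDX2, KRT18 and KRT8 rose (1.88, 0.74, 0.65 and 0.17), although under quantile normalization KRT8 was at -0.00805 and was not called. The summed level of these 10 genes was 2613 to 2718 FPKM in LoVo-HM, with 2016 to 2071 FPKM in LoVo, most of it KRT8 and KRT18. Of 7 keratinocyte markers, KRT5 and KRT14 rose, DSG3 and TP63 fell, KRT10 did not pass, and KRT1 and DSG1 were below the limit for testing. Their summed level, nearly all KRT5 in LoVo-HM, was 394 to 419 FPKM there and 95.6 to 102 FPKM in LoVo, so that it moved opposite to the members, and its part in their values was not tested. Among 7 fibroblast markers COL1A1 was tested and did not pass (-0.20 ± 0.106), COL1A2 was listed at 0 in every library, and their summed level was 4.92 to 5.75 FPKM in LoVo-HM, with 4.83 to 6.36 FPKM in LoVo. The 5 immune and 4 endothelial markers reached at most 0.352 and 0.109 FPKM in any library. Library totals were 424624 to 428265 FPKM in LoVo-HM, with 434108 to 439082 FPKM in LoVo, and no library stood apart, with Pearson correlations of 0.991 to 0.993 within a line and 0.936 to 0.938 between lines.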

How the data were processed

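Trizol RNA was made into TruSeq libraries, per the labels' protocols. The authors deposited FPKM values in a single table, 1 column for each library. Per the submitters' processing notes the genome was GRCh38. The aligner, counter, annotation and strand setting were not given in the sources used. Count models were not applied, since FPKM are not read counts. No steps worth 1 read were found: over 1554 rows below 0.3 FPKM, ratios between 2 LoVo libraries gathered in no common value (3.35% at most in any bin 0.05 log2 units wide). Depth is unknown, and no counting interval or detection limit is given.

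Values entered as log2(FPKM + 1), with no further scaling. Of 24580 rows, 14487 averaged 0.5 FPKM or more and were tested two-sided with limma 3.58.1 (R 4.3.3, trended prior variance, Benjamini-Hochberg adjustment). The procedure was run on simulated data with independent libraries, and with changes added only to genes well above 0. That run does not cover shared cultures or genes near the floor. Levels are mean ± SD (n = 3 libraries), and each log2 difference, LoVo-HM minus LoVo ± SE, understates the change of low genes. Positions are from GENCODE 29 (GRCh38), which matched all 19974 Ensembl identifiers, and promoters are from RefSeq.

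The members and lists were chosen with earlier results of these data known. Named from each list are up to 6 called genes with the largest differences, genes of at least 20 FPKM that did not pass, all 14-3-3 and PMP22/EMP genes, and TGM2, EVPL, PPL, TP63, KLF4, GRHL3, ZNF750, CSTB and PLAUR; 1 gene that this rule names is not reported here. Protein sequences were not used here. Tried as 16 alternatives were other pseudocounts (0.1, 0.5), other filters (none, 2 FPKM), scaling by totals, median ratios or quantiles, untrended and robust variances, a replicate block, and leaving out each library.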

Additional observations from a re-analysis of the deposited data

How the results depend on the processing

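The 5 members called as lower kept their direction and their call in all 16 alternatives, over which their log2 differences ranged from -5.30 to -3.70 for A2ML1, -5.12 to -2.87 for CSTA, -2.70 to -2.63 for PERP, -2.14 to -1.50 for LYPD3 and -1.53 to -1.36 for SFN. TGM1 passed in none of the 15 alternatives that tested it (limma adjusted p = 0.397 to 0.96), and its mean is below the filter at 2 FPKM. Without a filter on low values, 6 members were lower, the added one being SPRR1B (-0.59 ± 0.141, limma adjusted p = 0.0219). IVL, SPRR1A and SPRR3 did not pass in that setting (limma adjusted p = 0.0933, 0.104 and 0.129). It tested 20954 rows, and the share of them called as lower is not given here. Counts made without a filter therefore have no share of all genes beside them. The number of all genes called ranged from 5484 to 6638, against 6508.

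Without a filter the envelope precursor list had 2 lower, the protease and inhibitor list 5 lower, suprabasal keratins 2 lower, and the lipid and Ly6/uPAR lists 1 higher each. Quantile normalization gave 2 higher among surface and secreted genes. It also turned KRT8 to -0.00805 (limma adjusted p = 0.789), against 0.17 and a call as higher with the values as deposited. Leaving out 1 library gave 0 to 1 higher lipid enzymes, 1 higher Ly6/uPAR gene and 1 to 2 lower suprabasal keratins. The causes were not tested.

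Deviations of same-numbered libraries had correlations of -0.00701, 0.0215 and 0.0264, and those of differently numbered libraries had -0.0752 to 0.0548. These values give no sign of pairing by number, but they cannot exclude a shared culture or batch. With the replicate block, 5 members were lower and the Ly6/uPAR list had 1 higher gene, since LYPD6 no longer passed (limma adjusted p = 0.0618), while CSTB passed as lower (limma adjusted p = 0.0388). Depth limits what a value of 0 means for IVL and the SPRR genes.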
